A study of Saccharomyces cerevisiae with 6 samples.

Results

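The comparison set both Tra1 mutants of a budding yeast expression series, M1 and M8, together against the wild type (WT). The series holds 6 one-colour Affymetrix arrays, and all 6 were used: the 4 titled M1-D1, M1-D2, M8-D1 and M8-D2, and the 2 titled WT-D1 and WT-D2. M1 and M8 are both labelled as GID mutants, in which the interaction of Tra1 with the activator Gal4 is defective. WT cells carry the wild-type allele. Cells of every group, WT included, grew in YPD, a rich medium with glucose, with no treatment, and total RNA was taken from whole cells. Not given in the sources used here are the substitutions that M1 and M8 carry, the number of TRA1 copies, the strain background, the growth stage and whether each mutant is 1 clone. The 2 arrays of each group are called duplicates without a statement that they came from separate cultures, so a p-value covers only the spread among these arrays, and that spread can be technical.

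Tra1 is a very large protein of the PIKK family that has lost its kinase activity. It is a subunit of the histone acetyltransferase complexes SAGA and NuA4, where it offers a surface that activators such as Gal4 and Gcn4 touch to bring the complexes to promoters. A variant of SAGA called SLIK also holds Rtg2, a protein of the retrograde signalling pathway between mitochondria and nucleus. Folding and assembly of PIKK proteins, Tra1 among them, depends on Hsp90 and the TTT co-chaperone complex.

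Levels are log2 values per probe set as the authors deposited them, and each of 5656 genes was read by its brightest probe set that the platform table gives to 1 gene. A difference is the mean of the M1 and M8 means minus the WT mean on the log2 scale, so a positive value means higher in the mutants. A gene is said to have changed where limma's moderated test gave a Benjamini-Hochberg adjusted p under 0.05 over all 5656 genes. A gene is called separated where the 4 mutant arrays were all above, or all below, both WT arrays. Its nearest gap is the distance between the mutant array closest to WT and the WT array closest to the mutants. The mean of 2 mutants can rest on 1 of them, and separation asks for all 4 arrays, so both are given.

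Pairs of arrays had a Pearson's r of 0.985 to 0.998 over genes, and the array medians over all probe sets lay between 6.48 and 6.52. The difference between duplicates had an SD over genes of 0.349 in M1, 0.142 in M8 and 0.198 in WT, so the M1 pair agreed least. The array that departed most from the average of the rest was M1 replicate 2 (SD 0.303, against 0.139 to 0.194 for the other 5). Over 91 tRNA genes its median level was 0.34 above the WT mean, while this median was -0.49 in M1 replicate 1, -0.26 in M8 replicate 1 and -0.17 in M8 replicate 2. The part of this array in the results below was not tested except by leaving it out. The median difference of all genes was 0.020.

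TRA1 itself checks the labels only weakly, since the labels do not describe a change of its level. TRA1 (YHR099W) had log2 levels of 8.49 and 8.79 in the M1 arrays and 8.85 and 8.59 in the M8 arrays, against 8.41 and 8.11 in the WT arrays. All 4 mutant levels lay above both WT levels, with a nearest gap of 0.079, and the difference was 0.42 (SE 0.14, adjusted p = 0.515). It was 0.27 without WT replicate 2. The 13 probe sets that read TRA1 differed by -0.10 to 0.42, with a median of 0.20, and 12 were positive. All 4 mutant arrays stood above both WT arrays at 5 of these 13 and below them at 0. GAL4 differed by 0.10 (SE 0.11, adjusted p = 0.888).

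The mutants shared few changes that passed the test, beside many small differences that did not. Over all genes limma called 4 (0.0707%), 3 higher in the mutants (0.053%) and 1 lower (0.0177%). At an unadjusted p under 0.05 stood 452 genes (7.99%), 297 of them higher (5.25%) and 155 lower (2.74%), where about 283 are expected by chance. Separation held for 1061 genes (18.8%), with 673 above WT (11.9%) and 388 below (6.86%). Array order alone would also separate some genes in each direction. That share was not estimated, so these are not counts of changed genes. These counts depend on the scaling: with each array centred on its median, 9.55% of genes were separated above and 8.999% below. They also depend on the number of arrays, with 2014 separated genes without M1 replicate 2, 2562 without WT replicate 1 and 1939 without WT replicate 2.

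Most separated genes differed by little. Their median difference was 0.23 for those above WT and -0.22 for those below, and the median nearest gap was 0.062 and -0.057. A nearest gap of 0.1 or more was reached by 216 genes above and 115 below, of 0.25 by 51 and 23, and of 0.5 by 9 and 4. Only PDH1 reached a nearest gap of 1. The shares were similar from dim to bright genes: in 4 classes of mean level, each with an equal number of genes, between 10.7% and 13.8% of genes were separated above WT and between 5.80% and 7.71% below. Over the 32 chromosome arms the median difference ran between -0.026 on YGL and 0.10 on YAL.

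**Figure D1:**
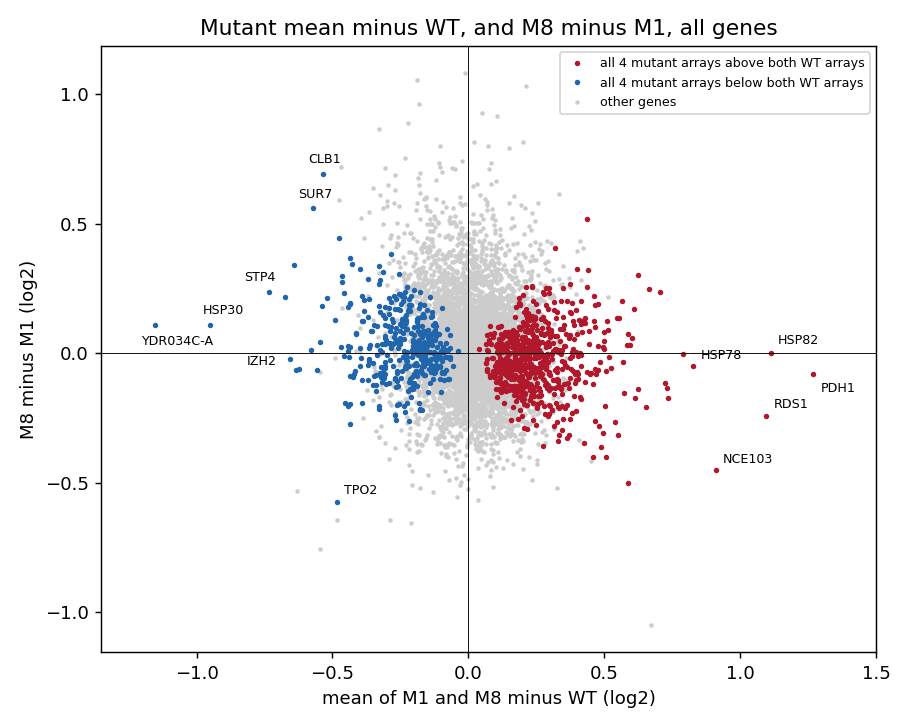
Each point is 1 of 5656 genes. The horizontal axis gives the mutant mean minus WT and the vertical axis M8 minus M1, both in log2 units. Red points have all 4 mutant arrays above both WT arrays, blue points have all 4 below, and grey points are the other genes. PDH1 and HSP82 lie farthest to the right near the horizontal line, while NCE103 and RDS1 lie below it and CLB1 and SUR7 well above it.

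The 3 genes that rose encode enzymes or a chaperone, and the 1 that fell encodes a membrane protein. PDH1 (YPR002W), a mitochondrial protein of the 2-methylcitrate cycle that breaks down propionyl-CoA, had log2 levels of 8.16 and 7.82 in the M1 arrays and 7.97 and 7.84 in the M8 arrays, against 6.76 and 6.59 in the WT arrays. The 4 mutant levels lay close together and more than 1 log2 unit above WT. It rose by 1.27 (SE 0.13, limma adjusted p = 0.0418), which is 2.41-fold, and its nearest gap was 1.05. HSP82 (YPL240C), the inducible form of the chaperone Hsp90, had 10.02 and 10.28 in the M1 arrays and 10.26 and 10.05 in the M8 arrays, against 9.04 and 9.03 in the WT arrays. Neither mutant stood apart from the other at this gene, and the nearest gap was 0.98. HSP82 rose by 1.11 (SE 0.12, limma adjusted p = 0.0418), or 2.16-fold.

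NCE103 (YNL036W), the carbonic anhydrase that makes bicarbonate from carbon dioxide, had log2 levels of 9.28 and 9.11 in the M1 arrays and 8.73 and 8.76 in the M8 arrays, against 8.03 and 8.09 in the WT arrays. The M1 arrays were the highest, the M8 arrays lay between, and no groups overlapped. NCE103 rose by 0.91 (SE 0.10, limma adjusted p = 0.0418), or 1.88-fold, and the difference was 1.14 in M1 and 0.69 in M8. HSP30 (YCR021C), a small plasma membrane protein that restrains the proton pump Pma1 under stress, had 7.53 and 7.36 in the M1 arrays and 7.47 and 7.64 in the M8 arrays, against 8.38 and 8.52 in the WT arrays. Both mutants lay below WT by a nearest gap of -0.74. HSP30 fell by 0.95 on the log2 scale (SE 0.11, limma adjusted p = 0.0479), so WT was 1.93-fold higher than the mutants. As RNA came from whole cultures, fewer cells that express a gene and less of its RNA per cell cannot be told apart.

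The calls depended on the processing and on which arrays entered. With all 6 arrays, limma called 0 genes with the replicate number as a block, with quantile normalization and with all one-gene probe sets in the adjustment, and the ordinary linear model also called 0. Between 389 and 470 genes then stood at an unadjusted p under 0.05. None of the 5656 genes was called by limma without M8 replicate 1, without M8 replicate 2, without WT replicate 1 or without WT replicate 2, where 200 to 362 genes stood at an unadjusted p under 0.05. Without M1 replicate 1, 51 genes were called, and without M1 replicate 2, 132, and both sets held all 4 genes. Over all alternatives the difference was 1.18 to 1.35 for PDH1, 1.05 to 1.18 for HSP82, 0.87 to 0.95 for NCE103 and -1.02 to -0.88 for HSP30. The adjusted p ranged between 0.00388 and 0.775 for PDH1 and HSP82, between 0.00646 and 0.775 for NCE103 and between 0.00762 and 0.99997 for HSP30.

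**Figure D2:**
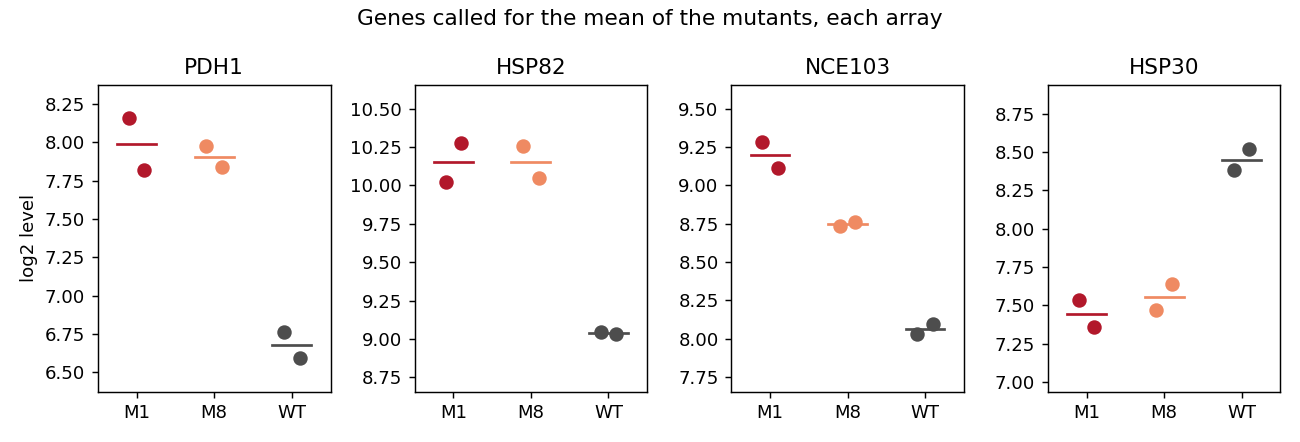
Log2 level of the 4 called genes on each array, with M1, M8 and WT from left to right. Each point is 1 array and each line is the mean of 2 arrays. In PDH1, HSP82 and NCE103 every mutant point lies above both WT points, and in HSP30 every mutant point lies below them.

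Other genes were separated above WT without passing the test. RDS1, a zinc cluster transcription factor tied to cycloheximide resistance, had 5.01 and 5.84 in the M1 arrays and 5.26 and 5.11 in the M8 arrays, against 4.24 and 4.18 in the WT arrays. It differed by 1.10 (SE 0.21, adjusted p = 0.193), with M1 replicate 2 the highest array. ALD6, the cytosolic aldehyde dehydrogenase that makes acetate, had 10.12 and 9.998 in the M1 arrays and 10.31 and 10.31 in the M8 arrays, against 9.56 and 9.47 in the WT arrays, and differed by 0.67 (SE 0.10, adjusted p = 0.101). A second, dimmer probe set of ALD6 differed by -0.24, and the mean of both gave 0.21. YAR068W, an uncharacterised gene with close copies that its probe set can also read, differed by 0.65 (SE 0.093, adjusted p = 0.101). NNR2, which repairs damaged NADH, had 8.31 and 8.47 in the M1 arrays and 8.32 and 8.11 in the M8 arrays, against 7.73 and 7.65 in the WT arrays, and differed by 0.61 (SE 0.11, adjusted p = 0.157). All 4 of these genes had their mutant arrays above both WT arrays.

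In the chaperone families the share of genes separated above WT ran between 0 of 8 CCT genes and 8 of 12 cytosolic Hsp70, Hsp110, Hsp40 and disaggregase genes, and HSP82 alone was called. Among Hsp90 and its co-chaperones, 6 of 14 genes (42.9%) were separated above WT and 1 below (7.14%), beside 11.9% and 6.86% of all genes. The median difference of the 14 was 0.28, beside 0.020 for all genes, and it was 0.18 without M1 replicate 1. HSC82, the constitutive Hsp90, had 12.94 and 13.03 in the M1 arrays and 12.94 and 12.71 in the M8 arrays, against 12.66 and 12.46 in the WT arrays, and differed by 0.35 (SE 0.11, adjusted p = 0.490). HSP82 and HSC82 are close copies whose probe sets could share signal. STI1, which passes client proteins between Hsp70 and Hsp90, had 9.89 and 9.86 in the M1 arrays and 9.94 and 9.98 in the M8 arrays, against 9.49 and 9.35 in the WT arrays. The mutant arrays lay within 0.12 of each other, and STI1 differed by 0.50 (SE 0.10, adjusted p = 0.208). AHA1, the activator of the Hsp90 ATPase, differed by 0.48 (SE 0.12), the prolyl isomerase gene CPR6 by 0.44 (SE 0.10) and the kinase co-chaperone gene CDC37 by 0.26 (SE 0.11). TAH1, a subunit of the R2TP complex that works with Hsp90, was the member separated below WT, with -0.17 (SE 0.10).

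Of the 12 cytosolic Hsp70, Hsp110, Hsp40 and disaggregase genes, 66.7% were separated above WT and 1 gene (8.33%) below, against 11.9% and 6.86% of all genes, with 0 called and a median of 0.27. HSP104, the disaggregase that pulls proteins out of aggregates, had 8.22 and 8.20 in the M1 arrays and 8.22 and 8.19 in the M8 arrays, against 7.59 and 7.24 in the WT arrays. Its 4 mutant arrays agreed within 0.031 while the WT pair differed by 0.35, and the difference was 0.79 (SE 0.12, adjusted p = 0.118). SIS1, an essential Hsp40 that guides Hsp70, had 9.49 and 9.57 in the M1 arrays and 9.43 and 9.36 in the M8 arrays, against 8.87 and 8.59 in the WT arrays, and differed by 0.73 (SE 0.11, adjusted p = 0.118). SSE2, a nucleotide exchange factor of the Hsp110 family, differed by 0.60 (SE 0.12), and its relative SSE1 by 0.26 (SE 0.10). The Hsp70 genes SSA2 and SSA1, close copies of each other, differed by 0.50 (SE 0.11) and 0.37 (SE 0.10), and the Hsp40 gene YDJ1 by 0.29 (SE 0.14). SNL1, an exchange factor of Hsp70 anchored in the ER membrane, was the member below WT, with -0.44 (SE 0.12, adjusted p = 0.344).

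In mitochondria, 5 of 10 chaperone and protease genes were separated above WT and 1 below, against 11.9% and 6.86% of all genes, with 0 called and a median of 0.20. HSP78, the mitochondrial disaggregase, had 6.56 and 6.62 in the M1 arrays and 6.69 and 6.39 in the M8 arrays, against 5.79 and 5.69 in the WT arrays. Its nearest gap was 0.60 and its difference 0.83 (SE 0.12, adjusted p = 0.101). The chaperonin gene HSP60 differed by 0.40 (SE 0.12), the Hsp40 gene MDJ1 by 0.32 (SE 0.12) and the protease gene PIM1 by 0.26 (SE 0.10). In the endoplasmic reticulum 2 of 10 genes were separated above and 0 below. These were KAR2, the resident Hsp70, at 0.38 (SE 0.13), or 0.22 without WT replicate 2, and SCJ1, its Hsp40 partner, at 0.37 (SE 0.093). The median of these 10 was 0.16, or 0.034 without WT replicate 2 and 0.25 without WT replicate 1. Of 4 small heat shock proteins and sequestrases, 1 was separated above WT, the aggregate-sorting factor gene BTN2 at 0.30 (SE 0.11). HSP42 differed by 0.35 (SE 0.13), or 0.20 without WT replicate 1. HSP26 pointed the other way with -0.17 (SE 0.12), a value that ran between -0.29 without WT replicate 1 and -0.056 without WT replicate 2. The 8 subunits of the CCT chaperonin, which folds actin and tubulin, had 0 separated in either direction and a median of 0.0061.

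General stress genes under the activators Msn2 and Msn4 had 20 of 36 members (55.6%) separated above WT and 3 (8.33%) below, with 0 called. Over all genes these shares were 11.9% and 6.86%, so the lower share was near that of all genes. Their median was 0.26 over both mutants, and on the single arrays it was 0.23 and 0.18 in M1 and 0.30 and 0.26 in M8. PGM2, the main phosphoglucomutase, had 7.92 and 8.07 in the M1 arrays and 7.89 and 7.75 in the M8 arrays, against 7.24 and 7.10 in the WT arrays. Its difference was 0.73 (SE 0.11, adjusted p = 0.101). TSL1, a regulatory subunit of trehalose synthase, had 8.36 and 8.06 in the M1 arrays and 8.58 and 8.32 in the M8 arrays, against 7.64 and 7.61 in the WT arrays, and differed by 0.70 (SE 0.13, adjusted p = 0.157). In both genes the lowest mutant array stood above the highest WT array by more than the WT pair differed.

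Further members were named after their values were seen. The trehalose synthase genes TPS1 and TPS3 differed by 0.44 (SE 0.11) and 0.28 (SE 0.12), the UDP-glucose maker gene UGP1 by 0.40 (SE 0.12), the glycogen branching and debranching enzyme genes GLC3 and GDB1 by 0.40 (SE 0.11) and 0.32 (SE 0.12), and the trehalase gene NTH1 by 0.33 (SE 0.12). GDB1 was separated by only 0.0013. The trehalose phosphatase gene TPS2 differed by 0.19 (SE 0.13), and its groups overlapped. GLK1, a glucokinase, differed by 0.51 (SE 0.10, adjusted p = 0.211), SOL4 of the pentose phosphate pathway by 0.62 (SE 0.12, adjusted p = 0.179), and the aldose reductase gene GRE3 by 0.47 (SE 0.12). Of the 36 differences 7 were negative, and SPI1, a cell wall protein, was 1 of the 3 members separated below WT. SPI1 had 8.06 and 7.54 in the M1 arrays and 8.01 and 7.96 in the M8 arrays, against 8.34 and 8.52 in the WT arrays. Its difference was -0.54 (SE 0.15, adjusted p = 0.380). HSP12, a membrane stress protein, was not shared: it differed from WT by 0.082 in M1 and -0.44 in M8.

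Genes of the 2-methylcitrate cycle and the retrograde response had the highest median of the 30 lists, 0.50, with 7 of 13 genes (53.8%) separated above WT, 0 below and 1 called, where 11.9% and 6.86% of all genes were separated. The retrograde response raises enzymes that supply 2-oxoglutarate, the precursor of glutamate, when mitochondria are impaired. On the single arrays the median was 0.62 and 0.28 in M1 and 0.47 and 0.43 in M8, so M1 replicate 2 was the lowest. CIT2, the peroxisomal citrate synthase and the classical target, had 9.72 and 9.70 in the M1 arrays and 9.68 and 9.89 in the M8 arrays, against 9.19 and 9.13 in the WT arrays, and differed by 0.59 (SE 0.10, adjusted p = 0.157). DLD3, which oxidises D-2-hydroxyglutarate, had 8.47 and 8.35 in the M1 arrays and 8.38 and 8.16 in the M8 arrays, against 7.74 and 7.69 in the WT arrays, and differed by 0.63 (SE 0.11, adjusted p = 0.157). PYC1, a pyruvate carboxylase, had 10.05 and 9.67 in the M1 arrays and 9.55 and 9.54 in the M8 arrays, against 9.16 and 9.14 in the WT arrays, with M1 replicate 1 the highest, and differed by 0.55 (SE 0.12, adjusted p = 0.278).

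Of the mitochondrial enzymes that lead from citrate to 2-oxoglutarate, IDH1, a subunit of isocitrate dehydrogenase, had 10.80 and 10.49 in the M1 arrays and 10.84 and 10.86 in the M8 arrays, against 10.19 and 10.18 in the WT arrays. It differed by 0.57 (SE 0.11, adjusted p = 0.211). The aconitase gene ACO1 differed by 0.50 (SE 0.13) and the citrate synthase gene CIT1 by 0.50 (SE 0.14), and both were separated. The other subunit gene, IDH2, differed by 0.40 (SE 0.17), but M1 replicate 2 at 12.27 lay level with the higher WT array at 12.28, and the difference was 0.24 without M1 replicate 1. The regulators were not separated: RTG1 differed by -0.20, RTG2 by -0.093 and RTG3 by 0.049. RTG3 turned to -0.24 without M1 replicate 1.

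The other measured genes of the 2-methylcitrate cycle did not differ as PDH1 did. CIT3, the mitochondrial citrate and methylcitrate synthase, and ICL2, the 2-methylisocitrate lyase, differed by 0.15 (SE 0.10) and 0.045 (SE 0.10), and neither was separated. CIT3 is the direct chromosomal neighbour of PDH1. NCE103 and IDH1 are also direct neighbours, and both were separated above WT. Among 5101 pairs of neighbouring measured genes, the neighbour of a gene separated above WT was itself above in 16.8% of 1216 cases and below in 4.44%, beside 11.9% and 6.86% of all genes. For genes below WT the neighbour was below in 11.1% of 700 cases and above in 7.71%. Among NCE103 and 7 other measured genes of bicarbonate use, only NCE103 and PYC1 were separated (25%), and the list had a median of 0.13, or 0.22 without WT replicate 1.

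Lysine synthesis was shared by all 4 mutant arrays at almost every step. Of 9 genes 8 (88.9%) were separated above WT, against 11.9% of all genes, 0 were below and 0 called, with a median of 0.36, and the array medians were 0.42 and 0.28 in M1 and 0.41 and 0.47 in M8. The pathway of fungi starts from 2-oxoglutarate. LYS20 and LYS21, close copies that encode the first enzyme, homocitrate synthase, differed by 0.51 (SE 0.11, adjusted p = 0.240) and 0.35 (SE 0.11). LYS20 had 12.25 and 12.15 in the M1 arrays and 12.01 and 12.25 in the M8 arrays, against 11.66 and 11.64 in the WT arrays. The following steps, LYS4 and LYS12, differed by 0.28 (SE 0.093) and 0.41 (SE 0.12), and LYS12 by 0.23 without WT replicate 1. LYS2, the aminoadipate reductase, differed by 0.34 (SE 0.094).

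LYS9, the first of 2 saccharopine dehydrogenases, had 10.54 and 10.06 in the M1 arrays and 10.12 and 10.25 in the M8 arrays, against 9.51 and 9.53 in the WT arrays, with M1 replicate 1 the highest. It differed by 0.72 (SE 0.14, adjusted p = 0.211). LYS1, the last enzyme of the pathway, had 9.95 and 9.67 in the M1 arrays and 9.82 and 9.73 in the M8 arrays, against 9.19 and 9.27 in the WT arrays, and differed by 0.57 (SE 0.11, adjusted p = 0.211). LYS14, the activator that reads a pathway intermediate, differed by 0.36 (SE 0.11). LYS5, which activates the Lys2 protein, was the exception with -0.032, and its sign turned in 2 alternatives.

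Of 28 other measured amino acid genes under the activator Gcn4, 7 (25%) were separated above WT, 0 below and 0 called, beside 11.9% and 6.86% of all genes. Their median was 0.072, or 0.13 without M1 replicate 2. The highest values belonged to TRP3 of tryptophan synthesis at 0.36 (SE 0.12), the arginine synthesis genes ARG1 and ARG4 at 0.35 (SE 0.14) and 0.33 (SE 0.13), and ILV6 of branched-chain synthesis at 0.32 (SE 0.11). Sulfur amino acid genes had 3 of 20 separated above WT (15%) and 5 below (25%). The methionine synthase gene MET6 differed by -0.48 (SE 0.21), or -0.27 without M1 replicate 2, and the ATP sulfurylase gene MET3 by -0.42 (SE 0.14), or -0.26 without WT replicate 1. CYS3, which makes cysteine from cystathionine, differed by 0.39 (SE 0.12), or 0.24 without WT replicate 2.

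**Figure D3:**
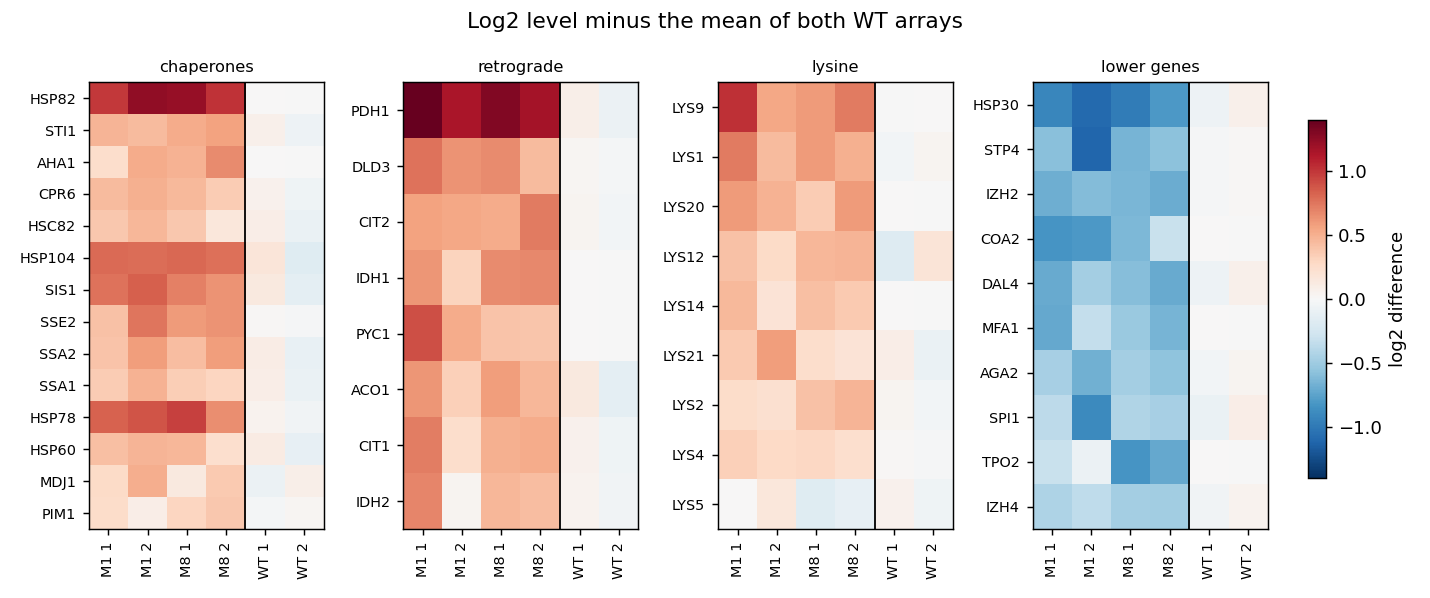
Heat maps of log2 level minus the mean of both WT arrays, with genes as rows and M1, M8 and WT arrays as columns from left to right, red for above and blue for below the WT mean. The chaperone, retrograde and lower rows were picked with their values known, mostly from separated genes, so their colour follows from that choice. Members such as SNL1, TAH1, HSP26, the CCT genes, CIT3, ICL2 and the RTG genes are not drawn. The lysine rows are the whole list. The chaperone, retrograde and lysine rows drawn are red across nearly all mutant columns. LYS5 has no common colour in the mutants, and IDH2 in M1 replicate 2 is at the WT level.

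The genes with the largest differences below WT came from several functions, with membrane proteins, a transcription factor and mating genes among them. HSP30 belongs to 14 measured genes of weak-acid and membrane stress, of which 4 (28.6%) were separated below WT, against 6.86% of all genes, 0 above and 1 was called. Their median was -0.12, but 0.020 without M1 replicate 2 and -0.25 without WT replicate 1. TPO2, a polyamine exporter with a close copy, had 11.17 and 11.41 in the M1 arrays and 10.67 and 10.77 in the M8 arrays, against 11.49 and 11.49 in the WT arrays, so M8 was the lower mutant. TPO2 differed by -0.48 (SE 0.11, adjusted p = 0.278). NRE1, a predicted reductase, differed by -0.39 (SE 0.11), opposite in sign to its chromosomal neighbour LYS1.

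IZH2, a membrane protein of zinc and lipid homeostasis from the family of adiponectin receptors, had 8.02 and 8.10 in the M1 arrays and 8.07 and 8.01 in the M8 arrays, against 8.69 and 8.72 in the WT arrays. The 4 mutant arrays agreed within 0.093 and the nearest gap was -0.59. IZH2 differed by -0.65 (SE 0.094, adjusted p = 0.101). Its relatives IZH4 and IZH1 were also separated below WT, at -0.44 (SE 0.10) and -0.27 (SE 0.12). These were the 3 of 12 zinc and IZH genes (25%) below WT, and 1 was above (8.33%), beside 6.86% and 11.9% of all genes. The median of the 12 was -0.039, and its sign turned in 2 alternatives.

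STP4, a zinc finger protein resembling the amino acid signalling factors Stp1 and Stp2, had 7.54 and 7.01 in the M1 arrays and 7.47 and 7.55 in the M8 arrays, against 8.10 and 8.14 in the WT arrays. It differed by -0.73 (SE 0.15, adjusted p = 0.212), with M1 replicate 2 the lowest. COA2, an assembly factor of cytochrome oxidase, had 7.23 and 7.24 in the M1 arrays and 7.42 and 7.73 in the M8 arrays, against 8.05 and 8.05 in the WT arrays, and differed by -0.64 (SE 0.11, adjusted p = 0.157). DAL4, the allantoin permease, had 5.003 and 5.23 in the M1 arrays and 5.11 and 5.003 in the M8 arrays, against 5.64 and 5.78 in the WT arrays, and differed by -0.62 (SE 0.11, adjusted p = 0.157). The kinetochore protein gene WIP1 differed by -0.64 (SE 0.15), the cysteine desulfhydrase gene IRC7 by -0.58 (SE 0.20), the cell wall sensor gene WSC4 by -0.52 (SE 0.11) and the autophagy gene ATG8 by -0.44 (SE 0.11). All of these were separated, and IRC7 differed by -0.35 without WT replicate 2. YDR034C-A had the widest gap in the lower direction after HSP30, with 7.38 and 7.93 in the M1 arrays and 7.76 and 7.77 in the M8 arrays, against 9.16 and 8.57 in the WT arrays and a difference of -1.15 (SE 0.20, adjusted p = 0.157). Its 6 other probe sets differed by -0.13 to 0.17, and the mean of all gave -0.17, so that value rests on 1 probe set. YFL067W, an uncharacterised gene, differed by -0.67 (SE 0.12, adjusted p = 0.157), and its 4 other probe sets by -0.83 to -0.40.

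Of 7 genes specific to MATa cells, 3 (42.9%) were separated below WT and 0 above, with 0 called, beside 6.86% and 11.9% of all genes. MFA1, a gene of the pheromone a-factor, had 11.76 and 12.15 in the M1 arrays and 11.96 and 11.83 in the M8 arrays, against 12.49 and 12.47 in the WT arrays, and differed by -0.56 (SE 0.13, adjusted p = 0.284). Its second probe set differed by -0.30. AGA2, which encodes the binding subunit of a-agglutinin, had 8.68 and 8.48 in the M1 arrays and 8.66 and 8.58 in the M8 arrays, against 9.10 and 9.19 in the WT arrays, and differed by -0.54 (SE 0.10, adjusted p = 0.199). MFA2 differed by -0.31 (SE 0.11). STE2, the receptor of alpha-factor, differed by -0.21 (SE 0.22), with -0.42 without M1 replicate 1 and -0.0041 without M1 replicate 2. The median of the 7 was -0.21, with -0.36 without M1 replicate 1 and -0.041 without M1 replicate 2. By mutant it was -0.40 in M1 and -0.011 in M8. On the single arrays the median was -0.11 and -0.51 in M1 and -0.097 and -0.10 in M8. Only M1 replicate 2 stood apart, and M1 replicate 1 was near the M8 arrays. MFA1, AGA2 and MFA2 were lower in both mutants. Of 4 MATalpha-specific genes 1 was above and 1 below, and of 9 haploid-specific genes 0 were separated.

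**Figure D4:**
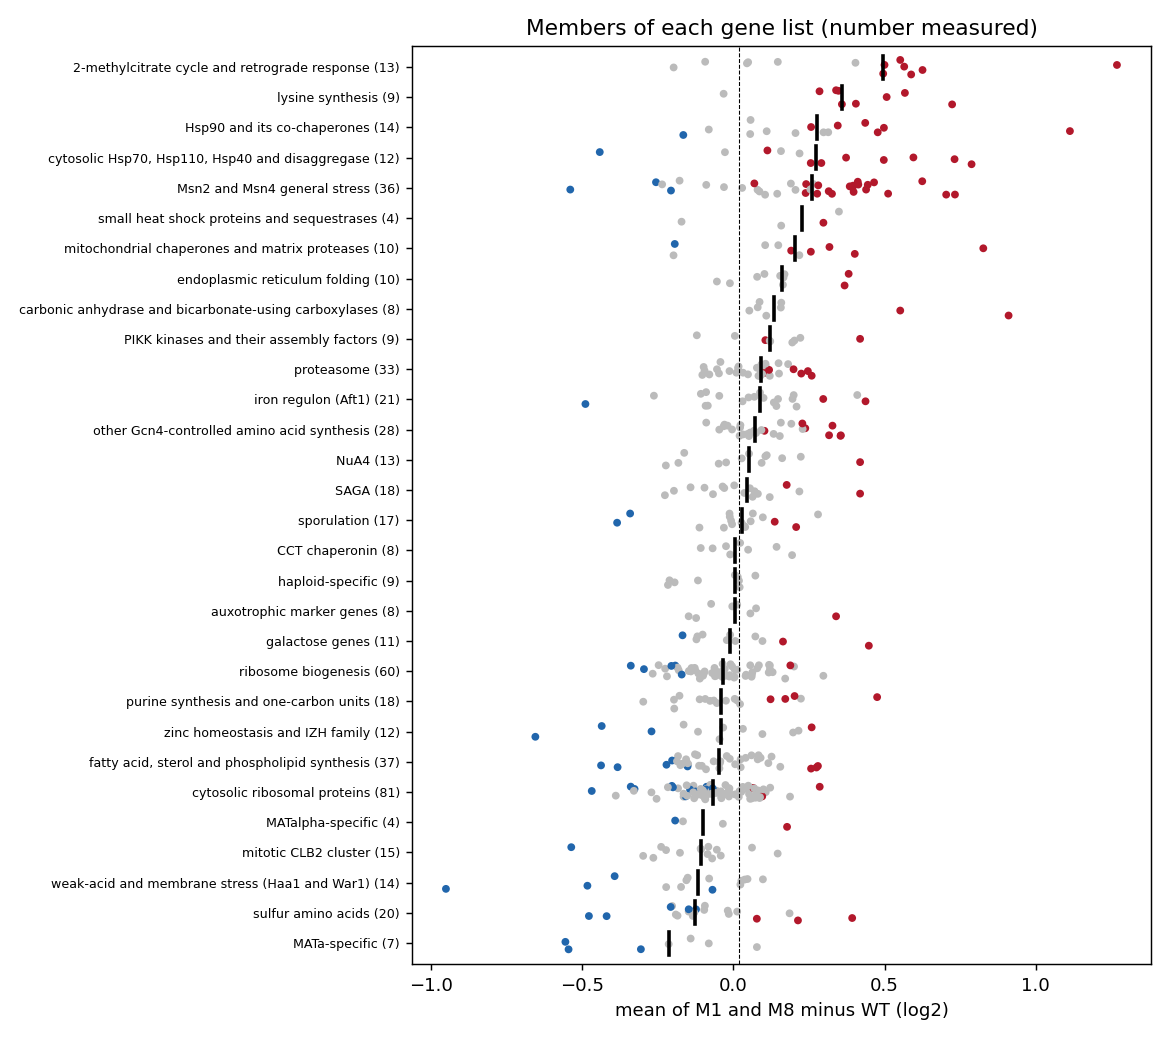
Each point is a measured gene of 1 of 30 lists, placed by the mutant mean minus WT in log2 units. Red points are separated above WT, blue points below, and grey points overlap WT. The black bar is the median of the list and the dashed line the median of all genes, 0.020. The retrograde, lysine, Msn2 and Msn4 and most chaperone lists stand to the right. The CCT chaperonin list, with a median of 0.0061, does not, and the MATa list is the leftmost.

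In the other lists 0 members were called, and their shares are to be read against 11.9% above WT and 6.86% below over all genes. Proteasome genes had 6 of 33 above WT (18.2%) and 0 below, with RPN6 of the lid at 0.26 (SE 0.10). Iron uptake genes had 2 of 21 above (9.52%) and 1 below (4.76%), both under the shares of all genes. They were TIS11, which degrades messages when iron is short, at 0.44 (SE 0.10), the reductase gene FRE2 at 0.30 (SE 0.092) and the low-affinity transporter gene FET4 at -0.49 (SE 0.16). Purine and one-carbon genes had 4 of 18 above (22.2%) and 0 below, led by the activator gene BAS1 at 0.48 (SE 0.13), or 0.30 without WT replicate 2. The list as a whole was not raised: 10 of the 18 differences were negative. Its median was -0.039, and the sign of this median turned in 2 alternatives. Fatty acid, sterol and phospholipid genes had 3 of 37 above (8.11%) and 5 below (13.5%), with the desaturase gene OLE1 at -0.44 (SE 0.13) and the squalene epoxidase gene ERG1 at -0.38 (SE 0.12).

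Ribosomal protein genes had 3 of 81 above WT (3.70%) and 11 below (13.6%), against 11.9% and 6.86% of all genes. RPS27A differed by -0.47 (SE 0.10, adjusted p = 0.236) and RPL33B by -0.33 (SE 0.10), and both have a close copy. Ribosome biogenesis genes had 1 of 60 above (1.67%) and 5 below (8.33%). Of the mitotic CLB2 cluster 0 of 15 were above and 1, CLB1, was below (6.67%). Of its differences 13 were negative and 2 positive, with a median of -0.11. On the single arrays the median was -0.15 and -0.39 in M1 and -0.061 and 0.017 in M8.

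Among the complexes that hold Tra1, 2 of 18 SAGA genes (11.1%) were above WT and 0 below, near the 11.9% and 6.86% of all genes. They were TRA1 and SPT3, which helps to deliver the TATA-binding protein, at 0.18 (SE 0.093). TRA1 was the 1 of 13 NuA4 genes above WT (7.69%), with 0 below. Of 9 PIKK and TTT genes 2 were above, TRA1 and the checkpoint kinase gene MEC1, and 0 below. Among 11 galactose genes, most of them targets of Gal4, 2 were above (18.2%) and 1 below (9.09%), beside 11.9% and 6.86% of all genes. The reductase gene GCY1 had 7.50 and 7.55 in the M1 arrays and 7.50 and 7.40 in the M8 arrays, against 7.03 and 7.05 in the WT arrays, and differed by 0.45 (SE 0.10, adjusted p = 0.236). The galactokinase gene GAL1 differed by 0.16 (SE 0.11) and was separated, with a nearest gap of 0.042. GAL7 and GAL10 differed by -0.12 (SE 0.11) and -0.12 (SE 0.12) with overlapping groups. GAL1, GAL7 and GAL10 were dim in every group, at percentiles 7.55, 8.47 and 8.26 of mean level, so their values say little about these genes. FUR4, a uracil permease gene beside the GAL cluster, differed by -0.17 (SE 0.11).

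No difference in size between the mutants passed the test. For M8 minus M1, 0 genes were called by limma (0%), with 364 (6.44%) at an unadjusted p under 0.05, which limma gave for 15 of the 673 genes separated above WT (2.23%) and 10 of the 388 below (2.58%). Without M1 replicate 1, 748 genes were called for M8 minus M1, and without M1 replicate 2, 7. Separated genes are those in which neither mutant falls back to WT, which also limits how far the mutants can lie apart. The following values are descriptions. CLB1, a mitotic cyclin, differed from WT by -0.88 in M1 and -0.19 in M8, an M8 minus M1 difference of 0.69 (SE 0.14, limma adjusted p = 0.721). SUR7, an eisosome protein of the plasma membrane, differed by -0.85 in M1 and -0.29 in M8. TIS11 and TPO2 ran the other way, with TIS11 at 0.18 in M1 and 0.70 in M8, and TPO2 at -0.20 and -0.77. NCE103 had an M8 minus M1 difference of -0.45 (SE 0.12, limma adjusted p = 0.721). The difference from WT was larger in M1 than in M8 for 384 of the genes above and 225 of those below.

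Second probe sets give a further reading of the same RNA. For 63 of the separated genes 205 other probe sets existed, of which 142 had the same sign and 33 were separated in the same direction, while 8 were separated in the opposite one. Most of the 205 were thus not separated. Over all genes, 11.9% were separated above WT and 6.86% below. Protein-coding genes were 671 of the 673 separated above WT and 379 of the 388 below, where 5486 of all 5656 genes are protein-coding. Of 57 snoRNA genes 1 was above and 8 were below, and of 91 tRNA genes 0 were above and 1 was below. The median snoRNA level minus the WT mean was -0.21 and 0.19 in the M1 arrays and -0.18 and -0.13 in the M8 arrays. For tRNA genes it was -0.49 and 0.34 in the M1 arrays and -0.26 and -0.17 in the M8 arrays. Only M1 replicate 2 was positive, and separation needs every mutant array on the same side, so that array limits these counts. Their size without it was not tested.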

How the data were processed

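Total RNA was labelled by 3' in vitro transcription with biotin and measured on 6 arrays, per the labels' protocols. The deposited values are log2 levels per probe set, made with RMA and oligo, per the submitters' processing notes. Versions and settings are not given in the sources used here, no detection call was used, and the number of arrays limits the precision. Scaling of this kind hides a shift common to all messages.

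Of 9275 probe sets, 6504 had 1 gene, 328 several and 2443 none. All 6504 matched the R64 gene table, which gave names and neighbours only. For 315 genes with several probe sets the one with the highest mean was kept, which left 5656 genes.

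Group means were fitted with limma 3.58.1 in R 4.3.3 to all 6 arrays (3 residual degrees of freedom), and p-values were two-sided. The members and the 30 lists were chosen with earlier results of these data known. The rule for naming took called genes, the 15 largest differences and 10 largest gaps per direction and up to 5 members per list, beside TRA1 and GAL4. Of the list members the text gives only some, and it favours separated ones. Left out with overlapping groups were, for example, FIT2 at 0.41, SGF11 at -0.23 and RPS26B at -0.39. Chosen after their values were seen were members of a list beyond its first 5, HSP12, the RTG genes and MEC1. Alternatives covered grouping, replicate block, scaling, probe sets, filter, variance model, array weights and each array left out. The calculation was tested on simulated data.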

Additional observations from a re-analysis of the deposited data

Results flagged for a closer look

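In 4 of the named genes M1 replicate 2 stood far from the other 3 mutant arrays. GLK1 had a log2 level of 10.78 there, against 10.97 to 11.003 on the other 3, and IDH1 had 10.49, against 10.80 to 10.86. OLE1 had 11.78, against 11.36 to 11.41, and STP4 had 7.01, against 7.47 to 7.55. In each the gap to the nearest array took up more of the range than Dixon's 95% limit for 4 samples allows. Chance gives such a gap in about 1 of 20 groups, and 111 named genes were examined. The 4 found are no more in number than that rate gives. That rate does not cover their all lying on M1 replicate 2, the array that departed most from the rest. The reason was not tested. All 4 genes were separated from WT, which by definition includes that array.

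Outside the named genes, the unnamed probe set 3953_at differed by -1.49 (SE 0.11, limma adjusted p = 0.0300 over all 9275 probe sets). It had log2 levels of 8.89 and 9.13 in M1 and 8.95 and 8.96 in M8, against 10.50 and 10.45 in WT, which was 2.81-fold higher. It was the 1 probe set called by limma over all 9275, so none of PDH1, HSP82, NCE103 and HSP30 was called in that adjustment. Of the probe sets without a single gene, 162 stood at an unadjusted p under 0.05.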

How the results depend on the processing

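The count of 4 called genes was 0 with the replicate block, with quantile normalization, with all one-gene probe sets and with the ordinary linear model. It was 16 with array weights and 0 to 132 with 1 array left out. It was 3 with 2 groups (without NCE103) and with a variance trend (without HSP30), and 4 with median centring, with the mean of a gene's probe sets and above the 25th percentile of level. At an unadjusted p under 0.05, limma gave 389 genes with the block, 445 with quantile normalization and 470 with all one-gene probe sets, and the ordinary linear model 462. The count of 1061 separated genes was between 1209 and 2562 with 1 array left out, where fewer arrays have to agree. Called genes for M8 minus M1 were 0 to 748 with 1 array left out, and the highest count came without M1 replicate 1.

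Whether the replicate numbers pair the samples was not settled. Differences between replicates 1 and 2 correlated at -0.11 between M1 and M8, -0.31 between M1 and WT and 0.30 between M8 and WT. M1 replicate 2, the array that departed most from the rest, enters both values that involve M1. With 1 array left out LYS5 ranged between -0.096 and 0.032 and RTG3 between -0.24 and 0.34. LYS5 was positive without M1 replicate 1 (0.0072) and without WT replicate 1. Causes were not tested. With 2 arrays per group and no detection call, small differences and those of dim genes may go undetected.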

Other observations

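Probe sets without a single gene leaned the other way from named genes: of 2771, all 4 mutant arrays lay above both WT arrays at 133 (4.80%) and below them at 279 (10.1%), against 11.9% and 6.86% of genes. Consecutively numbered probe sets around 3953_at, all unnamed here, were each lower in the mutants. The differences were -0.999 for 3951_at, -1.21 for 3952_at, -1.27 for 3954_at and -1.67 for 3955_at, with limma adjusted p between 0.0647 and 0.130. Probe set 3316_f_at differed by 1.56 in the other direction (limma adjusted p = 0.0638). What these probe sets read was not tested.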
